A study of Mus musculus with 43 samples.

Results

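Transcripts of 10 acute-phase genes (Saa1, Saa2, Saa3, Hp, Lcn2, Lrg1, Lbp, Cp, Orm1 and Itih4) were followed in mouse lung, among 21938 genes with counts. The genes were chosen by name, with Saa3 already known as a large difference between bleomycin and control lungs in these libraries. Their values in the 2 comparisons with control mice are therefore a description with no test. The tissue was the inferior lobe of the lung, with 43 libraries in 3 groups, each taken as 1 mouse. Control mice had received a vehicle that the labels do not name (n = 10), with no other agent named. Bleomycin mice had received either the vehicle of nintedanib (n = 16) or nintedanib itself (n = 17), and the labels mark both groups as a bleomycin model of idiopathic pulmonary fibrosis. Strain, sex, age, dose, route and day are not in the labels. Because the control vehicle is unnamed, its effect and that of bleomycin cannot be told apart. Bleomycin is a DNA-breaking drug that injures the rodent lung and leaves it fibrotic, and nintedanib blocks the receptor kinases of the PDGF, FGF and VEGF families. The series asks, by its title, how nintedanib acted in this model.

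Acute-phase proteins are secreted proteins whose plasma levels change in inflammation, mainly because IL-6, IL-1 and TNF act on hepatocytes through STAT3, C/EBP and NF-kB factors. Several are also made outside the liver, in epithelium, macrophages and fat. In the mouse, Saa1 and Saa2 encode serum amyloid A proteins of liver that ride on high-density lipoprotein, and Saa3 encodes a serum amyloid A made largely outside the liver.

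Totals ran from 13138281 to 17812995 counts in control libraries, from 13175246 to 19111457 in vehicle libraries and from 13324549 to 18723538 in nintedanib libraries. No pair of libraries within a group agreed within sampling noise (301 pairs, lowest chi-square over its degrees of freedom 5.24). Lung identity was plain in each group, since 7 alveolar type 2 genes summed to between 13896 and 50511 counts per 1000000 counts (CPM) in each library. Among 10 hepatocyte markers, Alb, the albumin gene, reached at most 1.13 CPM in control, 1.18 CPM in vehicle and 1.42 CPM in nintedanib libraries. Apoa1 reached at most 0.468 CPM, and Fgb had 0 counts in all control libraries. Not all were so low. Cyp2e1, an oxidase of liver and fat, reached 107.8 CPM in control, 5.0 CPM in vehicle and 100.8 CPM in nintedanib libraries, and Tdo2 reached 7.01 CPM in nintedanib libraries. Libraries differed in fat. Adipoq, the adiponectin gene of adipocytes, was at or above 1 CPM in 8 of 10 control, 0 of 16 vehicle and 5 of 17 nintedanib libraries. In these whole-lobe samples a change in the number of cells of a type cannot be told apart from a change in RNA per cell.

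The stretch of 250 bases before the RefSeq start of a gene is shown for the serum amyloid A genes and for Lcn2 and Lrg1, the genes with the largest differences from control lungs, because these genes are usually described as targets of C/EBP and NF-kB factors. RefSeq sequence on GRCm38.p6 was found for 7 of the 10 genes (Saa1, Saa2, Saa3, Lcn2, Lrg1, Cp and Itih4). Capitals mark matches to TTNCNNAA (a C/EBP-like motif), to GGG and CC with 5 bases of any kind between them (NF-kB-like) or to TTCNNNGAA (STAT-like), searched on both strands, where N is any base. No match shown overlaps another. The windows are chr7:46715677-46715926 (minus strand) for Saa3, chr7:46742981-46743230 (minus) for Saa1, chr7:46751583-46751832 (plus) for Saa2, chr2:32387740-32387989 (minus) for Lcn2 and chr17:56121947-56122196 (minus) for Lrg1.
Saa3: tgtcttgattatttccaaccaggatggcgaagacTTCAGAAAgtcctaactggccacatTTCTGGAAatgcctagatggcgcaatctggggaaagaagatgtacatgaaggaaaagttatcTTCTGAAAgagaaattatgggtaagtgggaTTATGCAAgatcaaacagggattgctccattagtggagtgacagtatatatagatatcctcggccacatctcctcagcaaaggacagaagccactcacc
Saa1: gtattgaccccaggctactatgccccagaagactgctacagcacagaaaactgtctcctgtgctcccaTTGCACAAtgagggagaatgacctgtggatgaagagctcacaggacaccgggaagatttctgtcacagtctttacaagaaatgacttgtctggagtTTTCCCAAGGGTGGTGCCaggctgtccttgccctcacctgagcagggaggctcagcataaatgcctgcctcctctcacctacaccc
Saa2: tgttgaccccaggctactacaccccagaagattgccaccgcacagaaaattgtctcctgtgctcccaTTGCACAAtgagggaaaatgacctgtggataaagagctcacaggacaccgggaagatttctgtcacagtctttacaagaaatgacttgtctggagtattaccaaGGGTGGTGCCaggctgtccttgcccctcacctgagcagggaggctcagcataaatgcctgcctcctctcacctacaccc
Lcn2: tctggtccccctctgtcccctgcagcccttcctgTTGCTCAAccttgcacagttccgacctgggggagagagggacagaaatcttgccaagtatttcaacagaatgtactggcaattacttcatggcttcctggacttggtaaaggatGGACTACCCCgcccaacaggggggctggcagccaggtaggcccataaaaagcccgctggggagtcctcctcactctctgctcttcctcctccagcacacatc
Lrg1: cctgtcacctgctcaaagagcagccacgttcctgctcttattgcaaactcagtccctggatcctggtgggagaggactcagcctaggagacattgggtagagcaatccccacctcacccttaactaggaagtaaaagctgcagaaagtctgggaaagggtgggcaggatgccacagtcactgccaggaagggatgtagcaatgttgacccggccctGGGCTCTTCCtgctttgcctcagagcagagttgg
The Saa3 window held 4 C/EBP-like matches, TTCAGAAA, TTCTGGAA, TTCTGAAA and TTATGCAA, and none of the NF-kB-like letters. At least 4 C/EBP-like matches stood in 0.591% of 32817 windows of this length, and at least 1 in 36.8%. Saa1 and Saa2 shared TTGCACAA and GGGTGGTGCC, Saa1 also had TTTCCCAA, Lcn2 held TTGCTCAA and GGACTACCCC, and Lrg1 held GGGCTCTTCC alone. The NF-kB-like letters stood in 45.8% of all windows and the STAT-like letters in 7.01%. Saa1 and Saa2 were 94.8% identical over these windows, while Saa3 was 52.2% identical to Saa1 and 52.4% to Saa2. A match describes letters in a window and is no evidence of binding.

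Saa3 (ENSMUSG00000040026, chromosome 7, 46711998 to 46715700, minus strand, GRCm38) went from near the floor in control lungs to a level that varied widely between bleomycin lungs. Its lowest, median and highest values were 0.524, 0.779 and 1.23 CPM in control libraries, after TMM scaling, which adjusts library totals for composition. They were 1.14, 14.9 and 55.7 CPM in vehicle libraries and 0.719, 22.04 and 71.8 CPM in nintedanib libraries. All but a single library of each bleomycin group stood above the highest control, namely 15 of 16 vehicle and 16 of 17 nintedanib libraries. The fold change from the edgeR fit was 28.2 in vehicle against control (log2 4.82 ± 0.71, SE) and 29.7 in nintedanib against control (log2 4.89 ± 0.70). These comparisons share the control libraries. Ordered by log2 fold change among 14836 tested genes, Saa3 stood at place 14 in the first and 11 in the second.

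The spread of Saa3 within a bleomycin group was among the widest of any gene. The highest library exceeded the lowest 48.8-fold under vehicle and 99.9-fold under nintedanib, against 2.35-fold in control mice. The SD of log2 CPM was 1.83 under vehicle and 1.66 under nintedanib, and 0.0944% and 0.377% of tested genes had a larger SD. Vehicle replicate 12 and nintedanib replicate 16, at 1.14 and 0.719 CPM, lay within the control range for Saa3, yet had 494 and 335 CPM of Lcn2, far above the control maximum of 72.3 CPM. Replicate numbers only name libraries.

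Saa1 (chromosome 7, 46740497 to 46742980) and Saa2 (chromosome 7, 46751790 to 46754313), the liver-type genes, were scarcely detected. Over all 43 libraries Saa1 had 169 counts and Saa2 had 35, and neither passed the filter on low counts, nor did their sum of 204. Saa1 had 8 counts over the control libraries, 53 over vehicle and 108 over nintedanib, or 0.0496 (95% exact Poisson interval 0.0214 to 0.0978), 0.199 (0.149 to 0.261) and 0.391 (0.321 to 0.472) CPM over the summed totals. Saa2 had 0, 18 and 17 counts, and 0 counts in control libraries allow up to 0.0229 CPM by the same interval. These intervals cover counting error only and not the spread between mice, and nintedanib replicate 15 alone reached 1.58 CPM of Saa1. That library was also the highest in Saa3. Of the 75-base windows of the Saa1 and Saa2 transcripts, 4.67% and 4.7% stood unchanged in the other gene, so their reads may be split or lost, whereas 0 of 481 windows of Saa3 occurred in a transcript of another gene.

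**Figure D1:**
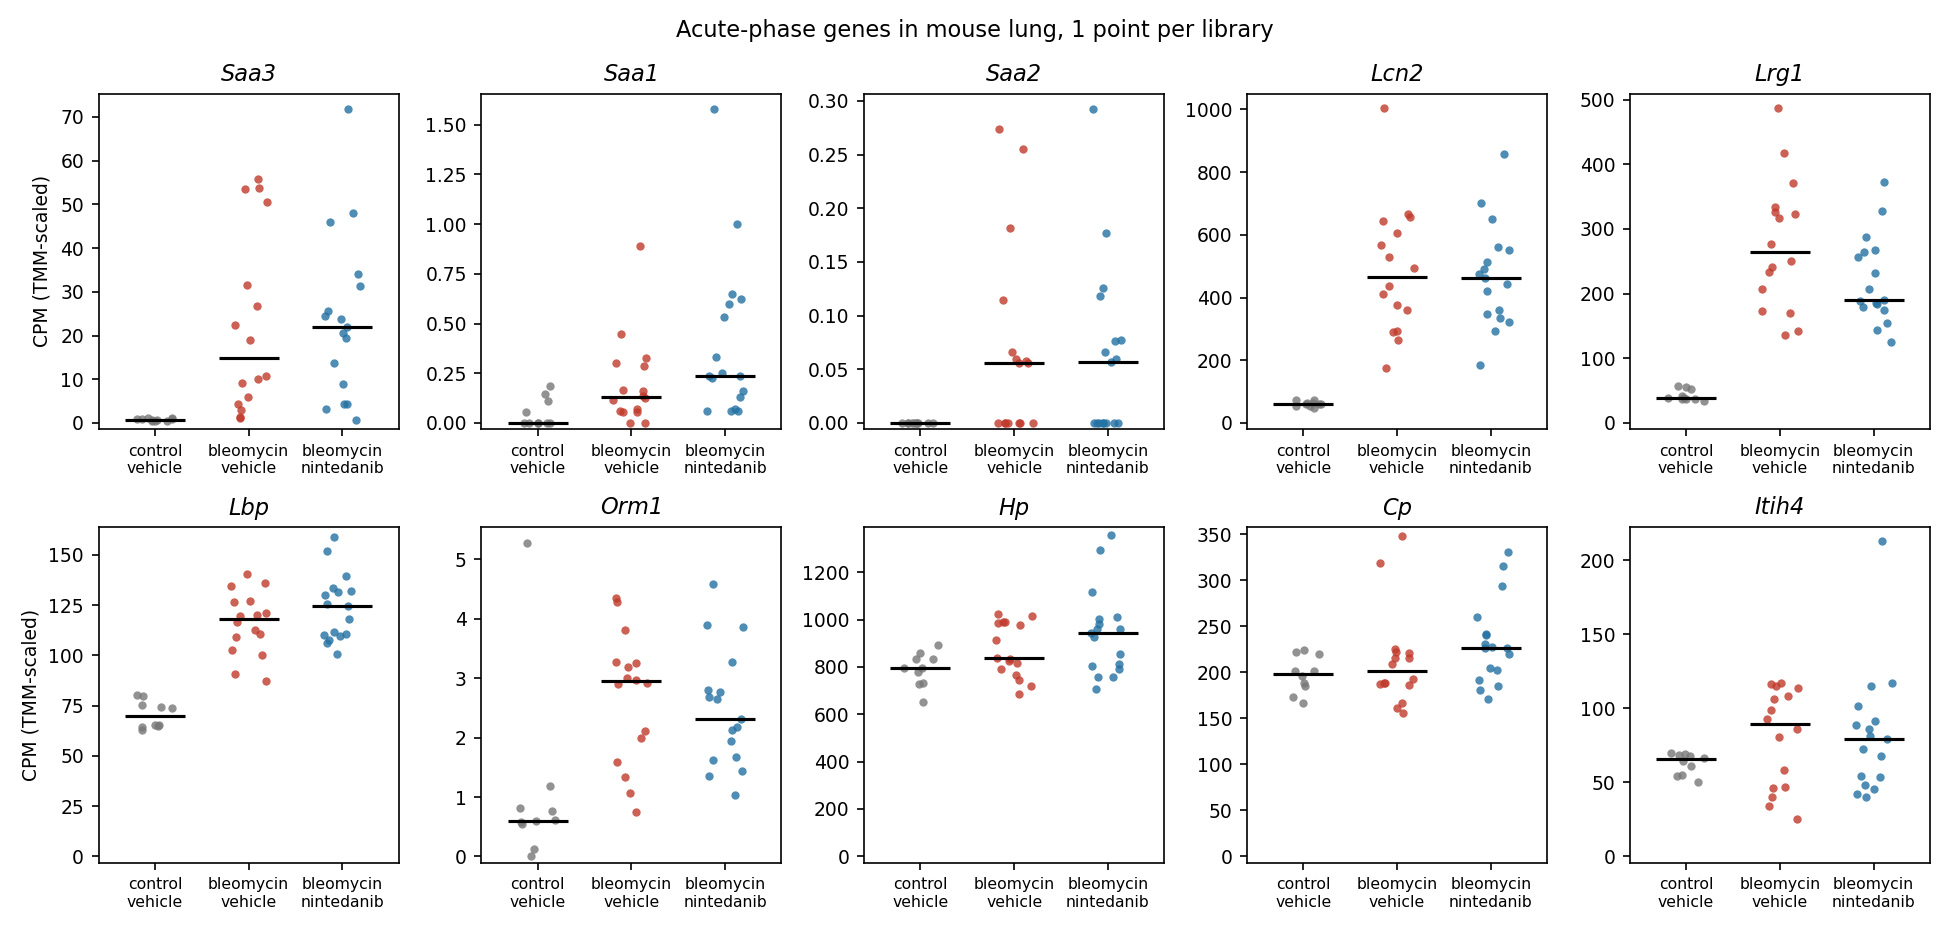
TMM-scaled CPM (linear axes from 0) of the 10 genes in 10 control vehicle, 16 bleomycin vehicle and 17 bleomycin nintedanib libraries, with 1 point per library and a bar at the median. Lcn2, Lrg1 and Lbp of both bleomycin groups stand clear of the controls, Saa3 runs from control values up to 71.8 CPM, and Hp and Cp overlap in all groups.

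Lcn2, Lrg1 and Lbp separated bleomycin from control lungs without overlap. These were 3 of the 8 genes that passed the filter, in both comparisons with control mice. Among all tested genes, 3.7% lay entirely higher and 1.84% entirely lower in vehicle than in control libraries, and 4.31% and 3.07% in nintedanib than in control libraries. By edgeR's adjusted p, 57.9% of all genes differed between vehicle and control (29.5% higher, 28.3% lower) and 53.2% between nintedanib and control (28.1% higher, 25.1% lower). Since the genes were chosen with these contrasts known, nothing is read from the counts. Of the 8 genes, 4 had a log2 fold change of at least 1 in each comparison, against 6.07% and 4.78% of all tested genes. Their median log2 fold change was 1.03 in both, against -0.01 in both for all genes.

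Lcn2 (ENSMUSG00000026822, chromosome 2, 32384633 to 32388252) encodes lipocalin-2, which binds bacterial siderophores and so withholds iron. Its lowest, median and highest values were 48.5, 60.5 and 72.3 CPM in control, 174.9, 465 and 1003 CPM in vehicle and 184.8, 463 and 859 CPM in nintedanib libraries. The lowest bleomycin library was thus still above the highest control. Lcn2 was 7.93-fold higher in vehicle than in control mice (log2 2.99 ± 0.23) and 7.66-fold higher in nintedanib mice (log2 2.94 ± 0.22).

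Lrg1 (ENSMUSG00000037095, chromosome 17, 56119678 to 56122001) encodes a secreted leucine-rich glycoprotein known in endothelium to alter TGF-beta signalling through endoglin. Control libraries ran from 34.4 CPM over a median of 38.4 CPM to 57.0 CPM, vehicle libraries from 136.7 over 264 to 487 CPM, and nintedanib libraries from 124.6 over 189.6 to 372 CPM. It was 6.44-fold higher in vehicle than in control mice (log2 2.69 ± 0.20) and 5.15-fold higher in nintedanib mice (log2 2.36 ± 0.19). No bleomycin library reached down to the control range.

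Lbp (ENSMUSG00000016024, chromosome 2, 158306493 to 158332852) encodes the protein that passes bacterial lipopolysaccharide to CD14. Control libraries ran from 62.8 over 69.6 to 80.3 CPM, vehicle libraries from 87.2 over 118.1 to 140.2 CPM and nintedanib libraries from 100.5 over 124.7 to 159.0 CPM. The difference was smaller than for Lcn2 and Lrg1, at 1.64-fold under vehicle (log2 0.72 ± 0.07) and 1.75-fold under nintedanib (log2 0.81 ± 0.07), and neither bleomycin group overlapped the controls.

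Orm1 (ENSMUSG00000039196, chromosome 4, 63344560 to 63348163), which encodes the drug-binding plasma protein alpha-1-acid glycoprotein, was low in every group. Control libraries ran from 0 over 0.601 to 5.28 CPM, vehicle libraries from 0.754 over 2.95 to 4.34 CPM and nintedanib libraries from 1.03 over 2.32 to 4.59 CPM. All 16 vehicle and all 17 nintedanib libraries were above the control median, but none was above control replicate 1, which held 84 of the 172 control counts. The log2 fold change was 1.35 ± 0.38 in vehicle and 1.24 ± 0.38 in nintedanib against control, and 2.19 and 2.08 without control replicate 1. Of the windows of its transcript, 13.8% also stood in Orm2, so its reads are uncertain to that extent.

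The control library richest in adipocyte transcripts was also the highest in Orm1. The sum of 7 adipocyte markers was 2241 CPM in control replicate 1, the highest of all libraries, and its Orm1 value was 5.28 CPM. The control libraries without Adipoq, replicates 2 and 5, had adipocyte sums of 8.87 and 16.5 CPM and Orm1 values of 0.123 CPM (2 counts) and 0 CPM. Among nintedanib libraries the highest Orm1 value, 4.59 CPM, stood in replicate 7, whose adipocyte sum was 1056 CPM. The lowest Orm1 value of that group, 1.03 CPM, stood in replicate 14 with an adipocyte sum of 66.8 CPM, and replicate 10 had 3.86 CPM of Orm1 with a sum of 4.70 CPM, so the order of the sums was not that of Orm1. Vehicle libraries had adipocyte sums of 1.88 to 13.5 CPM and Orm1 up to 4.34 CPM. Without the libraries that hold Adipoq, all vehicle and all nintedanib libraries were above the remaining 2 control libraries for Orm1. The share of all genes so separated from 2 control libraries was not counted, so nothing is read from this. The part of fat in the Orm1 values was not tested further.

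**Figure D2:**
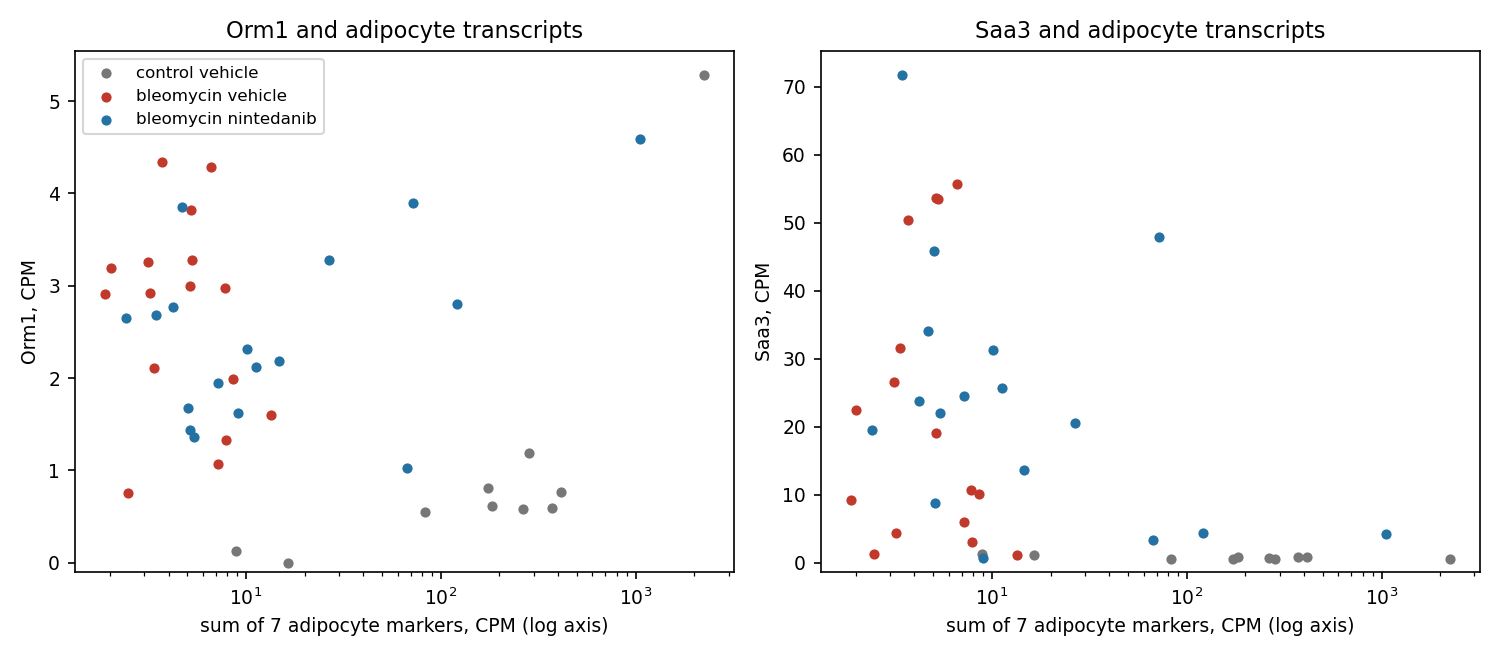
Orm1 (left) and Saa3 (right) in CPM against the summed CPM of 7 adipocyte markers (log axis), with 1 point per library, coloured by group. The control library with the highest adipocyte sum, 2241 CPM, has the highest Orm1 value, 5.28 CPM, whereas Saa3 stays at or below 1.23 CPM in all control libraries along the axis.

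Hp, Cp and Itih4, which encode plasma proteins of liver, had log2 fold changes under 0.5 in size in both comparisons with control mice, and their groups overlapped. Hp (ENSMUSG00000031722, chromosome 8, 109575128 to 109579172), the haemoglobin scavenger haptoglobin, ran from 653.8 over 797 to 893 CPM in control, from 686.6 over 836 to 1025 CPM in vehicle and from 705 over 945 to 1356 CPM in nintedanib libraries. Its log2 fold change was 0.14 ± 0.09 in vehicle and 0.25 ± 0.09 in nintedanib against control. With Adipoq-holding libraries left out these were 0.33 and 0.38, and the nintedanib libraries did not overlap the remaining 2 controls. How many of all genes did the same against 2 controls was not counted, so nothing is read from it.

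Cp (ENSMUSG00000003617, chromosome 3, 19957054 to 20009145) encodes ceruloplasmin, a copper-carrying ferroxidase. It ran from 166.4 over 198.1 to 224.1 CPM in control, from 155.3 over 200.8 to 348 CPM in vehicle and from 170.4 over 226.6 to 331 CPM in nintedanib libraries, with log2 fold changes of 0.10 ± 0.11 and 0.23 ± 0.11 against control. The groups overlapped over most of their range.

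Itih4 (ENSMUSG00000021922, chromosome 14, 30886476 to 30902353), a heavy chain of the inter-alpha-trypsin inhibitor family, spread both above and below the control range in bleomycin lungs. Control libraries ran from 50.4 over 65.5 to 69.7 CPM, vehicle libraries from 25.1 over 89.4 to 117.0 CPM and nintedanib libraries from 40.1 over 79.2 to 213 CPM. Of 16 vehicle libraries, 10 lay above the highest control and 5 below the lowest. Of 17 nintedanib libraries, 10 lay above and 4 below. The log2 fold changes against control were 0.36 ± 0.23 and 0.39 ± 0.23. The SD of log2 CPM was 0.73 under vehicle and 0.63 under nintedanib, against 0.17 in control mice.

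**Figure D3:**
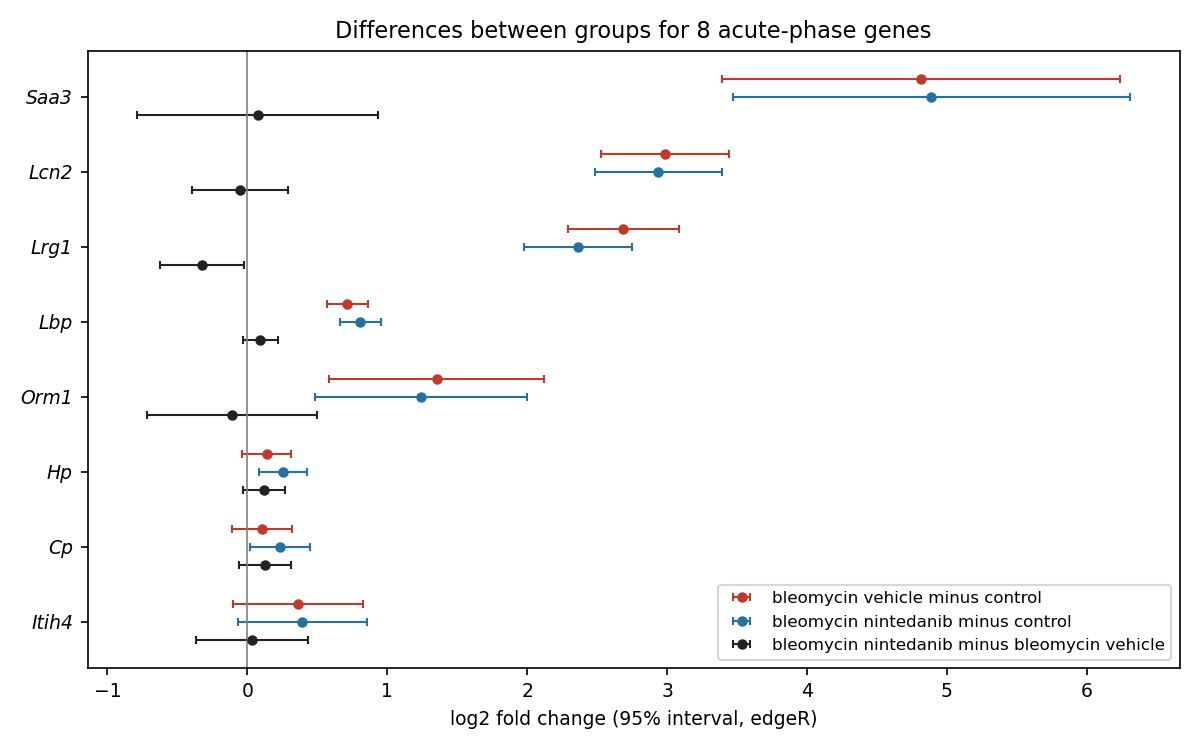
Log2 fold change with its 95% interval from the edgeR fit for the 8 genes that passed the filter, in 3 comparisons marked by colour. All 8 points lie above 0 in both comparisons with control mice. Since the genes were chosen with these contrasts known, the intervals there are a description, and no test is read from them. The points of nintedanib minus vehicle lie near 0, with Lrg1 lowest at -0.32, while the Saa3 interval runs from -0.79 to 0.94.

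Whether nintedanib changed these transcripts in bleomycin lungs was tested for the 8 genes. Which contrast led to their choice is not recorded, and they were chosen with earlier results known, so this test may not be independent of the choice. None passed edgeR's quasi-likelihood test at an adjusted p of 0.05 (0 of 8), where 7.31% of all tested genes did, 3.21% higher and 4.1% lower. Lrg1 alone had an unadjusted p under 0.05, and DESeq2 also called 0 of 8. Lrg1 was 0.799 times as high under nintedanib (95% interval 0.649 to 0.985), a log2 fold change of -0.32 ± 0.15 (edgeR p = 0.036, adjusted p = 0.17). Of 17 nintedanib libraries, 13 lay below the vehicle median, and the groups overlapped. Over 52 alternatives its adjusted p ran from 0.085 to 0.42. Among libraries of name series A, the largest of 3 series of library numbers whose meaning is not stated, the log2 fold change was -0.23 (adjusted p = 0.42).

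The interval was wide for Saa3 and narrow for Hp, Lbp and Cp. Saa3 had a log2 fold change of 0.07 ± 0.43 (95% interval -0.79 to 0.94, edgeR adjusted p = 0.94), which spans from 0.579 to 1.91 times the vehicle level. Its group means were 22.4 ± 20.5 CPM (SD, n = 16) under vehicle and 23.7 ± 18.7 CPM (n = 17) under nintedanib. For Lcn2 the interval ran from 0.762 to 1.22 times, for Lbp from 0.978 to 1.16, for Hp from 0.978 to 1.2, for Cp from 0.96 to 1.24, for Orm1 from 0.608 to 1.41 and for Itih4 from 0.776 to 1.35. Their edgeR adjusted p ran from 0.33 for Hp to 0.94 for Itih4. The direction turned for Saa3, Lcn2 and Itih4 when certain libraries were left out, so no direction is given for these.

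Several neutrophil transcripts stood higher under nintedanib, while Lcn2, which neutrophils also make, did not pass the test. Of 9 tested neutrophil markers, 5 were higher under nintedanib than under vehicle by edgeR (adjusted p under 0.05), where 3.21% of all tested genes were, and 0 were lower. Ngp, a granule gene named after its values were seen, had a log2 value of -0.83 (adjusted p = 0.487). S100a9, a calprotectin subunit, was higher by 1.30 on the log2 scale (edgeR adjusted p = 0.0163) and Csf3r, the G-CSF receptor gene, by 0.75 (edgeR adjusted p = 0.0192). The sum of 11 neutrophil markers ran from 28.8 to 137.5 CPM under vehicle and from 69.6 to 748 CPM under nintedanib, where the second highest library had 182.7 CPM. The highest sum stood in nintedanib replicate 15, the library with the highest Saa3, whose Lcn2 value of 553 CPM lay inside the range of its group. The part of neutrophils in the values of Saa3 and Lcn2 was not tested.

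Per kilobase of exon, which allows levels of different genes to be compared, haptoglobin was the most abundant of the 10 in each group. Vehicle libraries had a mean level of 542 ± 71.1 CPM per kilobase (SD, n = 16) for Hp, 195.5 ± 71.3 for Lrg1 and 185.2 ± 78.4 for Lcn2. Lbp at 23.99 ± 3.21, Cp at 22.2 ± 5.5 and Itih4 at 21.8 ± 9.0 CPM per kilobase followed and were within 1 SD of each other, as were Lrg1 and Lcn2. Saa3 stood at 8.61 ± 7.86, Orm1 at 3.45 ± 1.41, Saa1 at 0.0807 and Saa2 at 0.0278. In control libraries Saa3 was at 0.304 ± 0.097 CPM per kilobase, below Orm1 at 1.36 ± 1.97 with its control replicate 1. The exon length of a gene joins all its annotated exons. With the length of a single protein-coding transcript, Lcn2 stood at 531 and Lrg1 at 195.5, and Saa3 at 40.4 was beside Lbp at 45.9 and Cp at 51.9, so the order among middle genes depends on the length used.

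The wide Saa3 range made it possible to ask which other genes of the set varied with it between mice of 1 group. Across the 16 vehicle libraries, Saa3 varied with Lrg1 (Pearson r = 0.82, permutation p = 0.00013, adjusted over 14 relations 0.0018) and its Spearman rho was 0.77 (permutation p = 0.0008, adjusted 0.0056). It also varied with Orm1 (r = 0.78, permutation p = 0.00044, adjusted 0.0031, and rho = 0.79, permutation p = 0.00048, adjusted 0.0056). Without the 2 libraries farthest from the median of Saa3, r was 0.74 for Lrg1 and 0.68 for Orm1. Within series A the values were 0.81 and 0.78 (permutation, adjusted p = 0.025 for each), and series B and C held 2 and 3 vehicle libraries, too few for a value. Genes outside the set had higher rhos with Saa3 across the 16 vehicle libraries, among them Atp13a1 at 0.835 and Ccl2 at 0.832. The share of all genes that vary with Saa3 this closely was not counted, so nothing particular to the set is read.

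Lcn2, the other strongly raised gene, had r = 0.25 with Saa3 under vehicle (permutation p = 0.35, adjusted 0.54). The highest library in Saa3 under vehicle, replicate 11 at 55.7 CPM, was also the highest in Lcn2 at 1003 CPM. Replicate 4, at 53.7 CPM of Saa3, had the lowest Lcn2 at 174.9 CPM. That library stood apart in other ways. It had the highest Cp, 348 CPM, and the lowest Itih4, 25.1 CPM, of its group, the highest fibroblast sum, 7178 CPM, and the lowest alveolar type 2 sum, 13896 CPM, of all libraries. The part of cell makeup was not tested.

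Across the 17 nintedanib libraries 0 of 7 relations of Saa3 passed the adjusted threshold. The 2 with an unadjusted permutation p under 0.05 were those with Lcn2 (r = 0.56, p = 0.02, adjusted 0.095, rho = 0.47) and Lbp (r = 0.52, p = 0.03, adjusted 0.10, rho = 0.55). Lrg1 had r = 0.45 (permutation p = 0.073, adjusted 0.17) and Orm1 r = 0.29 (permutation p = 0.26, adjusted 0.45). Whether the relations differ between vehicle and nintedanib mice was not tested. Nintedanib replicate 5 had the highest Hp (1356 CPM), Lcn2 (859 CPM), Lrg1 (372 CPM), Lbp (159.0 CPM) and Itih4 (213 CPM) of its group with 20.6 CPM of Saa3, and also the highest macrophage sum of all libraries, 6226 CPM.

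**Figure D4:**
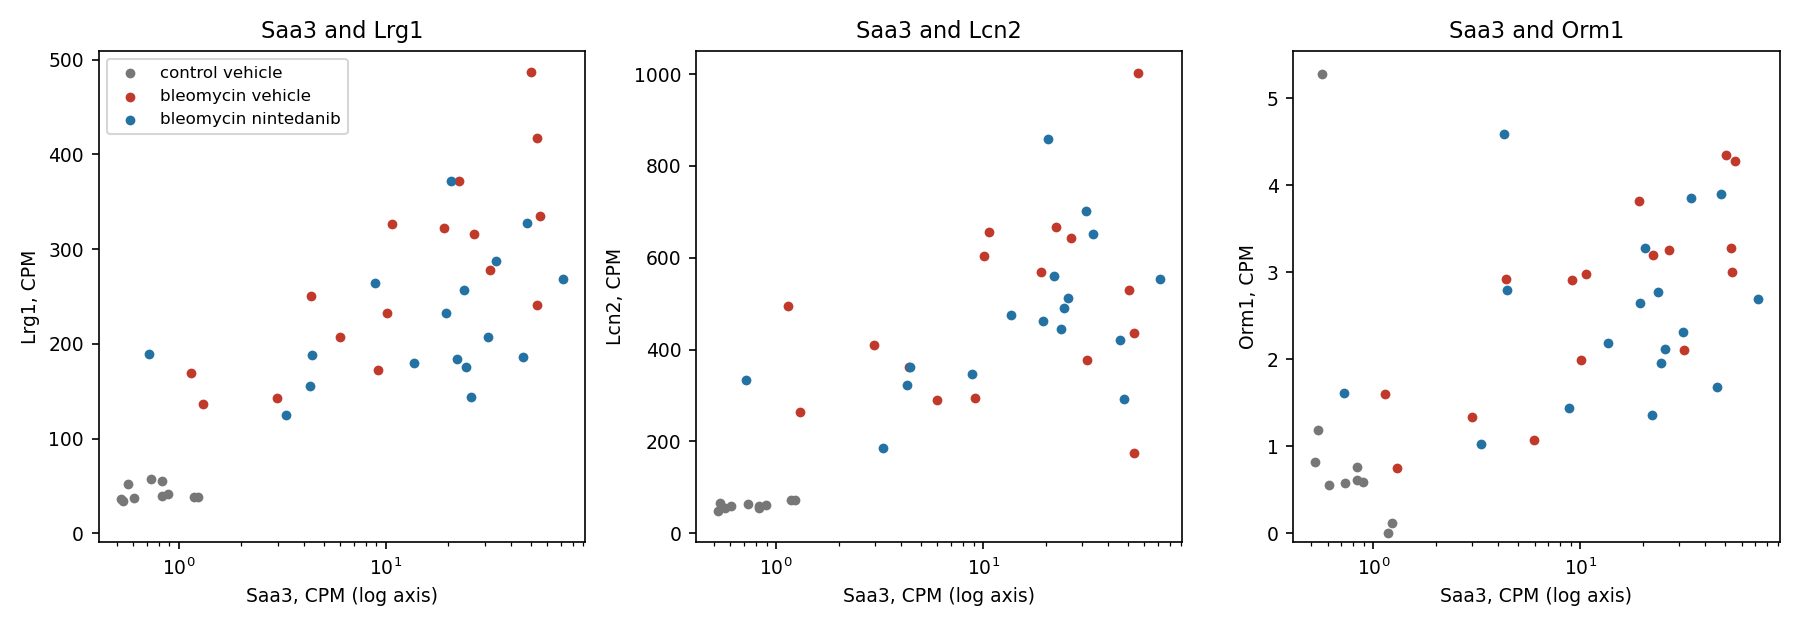
Lrg1, Lcn2 and Orm1 in CPM (linear axes) against Saa3 in CPM (log axis), with 1 point per library, coloured by group. Within the 16 vehicle libraries Lrg1 and Orm1 climb with Saa3 (r = 0.82 and 0.78 on log2 values), while for Lcn2 r is 0.25.

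The genes whose levels most resembled each of the 8 across bleomycin mice were found by the lower of the Spearman rhos within vehicle and within nintedanib mice, among 12908 genes. For Saa3 they were Ccl2, a monocyte chemokine (rho = 0.832 in vehicle and 0.779 in nintedanib libraries), Atp13a1 (0.835 and 0.779), Sh3pxd2b (0.797 and 0.775), Grn (0.762 and 0.757) and Btbd19 (0.762 and 0.73). In the 10 control libraries the rhos with Saa3 were 0.0303 for Ccl2, 0.333 for Atp13a1, 0.479 for Sh3pxd2b, 0.273 for Grn and 0.564 for Btbd19. For Lrg1 they were Chmp6 (0.871 and 0.865), Socs3, an inhibitor induced by STAT3 (0.853 and 0.85), Pfdn1, Ptges and Il4ra. For Lcn2 they were Sftpd, the surfactant protein D gene (0.853 and 0.814), D6Ertd527e, Atp6v1h, Chil1 and Osbpl9. These rhos are a description over 16 and 17 libraries that share their processing, with the highest picked from many.

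The remaining genes were less closely matched. Itih4 was most like Rpn2 (0.791 and 0.775), followed by Kcnq1, Reep5, Tgm2 and Atp13a2. Lbp was most like Slurp1 (0.774 and 0.765), followed by Chmp4b, Rab20 and Slc9a3r1. Orm1 was most like Gipc1 (0.721 and 0.745), then Rps27l, Pgk1, Slc25a4 and Zfp423, and Cp was most like Adm (0.709 and 0.723), then Scara3, Tbc1d1, Nmral1 and L3hypdh. Hp had the lowest likeness of all, with Tyro3 (0.788 and 0.63), the club cell gene Scgb1a1 (0.647 and 0.62), Acsm1, Cckar and Nek2. Scgb1a1 itself fell in vehicle against control mice, by 1.10 on the log2 scale (edgeR adjusted p = 2.8e-07).

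A list of other acute-phase genes, drawn up with earlier results of these data known and so no independent evidence of a direction, held more genes that rose than fell in bleomycin lungs. Of 26 such genes 20 were tested and in vehicle against control mice 15 rose and 2 fell by edgeR (adjusted p under 0.05), where 29.5% of all tested genes rose and 28.3% fell. The same background, 57.9% called in either direction, stands behind the counts of each of the other lists, and nothing particular to a list is read from them. Their median log2 fold change was 0.95, against -0.01 for all genes. The fibrinogen chains Fga and Fgg rose by 3.16 ± 0.73 and 2.36 ± 0.54 (adjusted p = 0.000316 and 0.000254) from control medians of 0.0903 and 0.256 CPM. Ptx3, a long pentraxin made by macrophages and stromal cells, rose by 2.59 ± 0.37 (adjusted p = 1.13e-07). The metallothionein gene Mt2 rose by 1.95 from a control median of only 0.14 CPM. Hamp, which encodes the iron hormone hepcidin, fell by 4.0 (adjusted p = 1.3e-07), and Orm3, a paralog of Orm1, fell by 1.095. Both were scarce, with control and vehicle medians of 1.66 and 0.0617 CPM for Hamp and 0.963 and 0.523 CPM for Orm3.

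Of these 20 genes, Ptx3 was lower under nintedanib than under vehicle and 2 were higher. Its lowest, median and highest values were 0.534, 1.34 and 2.4 CPM in control, 2.75, 8.45 and 13.6 CPM in vehicle and 0.257, 1.06 and 5.62 CPM in nintedanib libraries. It fell by 2.43 ± 0.30 on the log2 scale under nintedanib against vehicle (edgeR adjusted p = 1.1e-06), and its log2 fold change was -2.695 (adjusted p = 8.91e-06) without the libraries that hold Adipoq. Serpina3m rose by 0.76 (adjusted p = 0.0288) and C4b by 0.44 (adjusted p = 0.0496). Neither passed without those libraries (adjusted p = 0.0987 and 0.134), and C4b also missed the threshold with RLE factors or library totals. In that setting 8 of 21 tested genes of the list rose and 1 fell in vehicle against control mice, with 2 control libraries left. Of all 15276 genes tested there, 2050 rose and 1604 fell. This lower background stands behind each count without Adipoq libraries in the other lists, and nothing particular to a list is read from such counts.

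The list of negative acute-phase genes, most of whose products are made less by the inflamed liver, held calls in both directions. Of 10 genes 7 were tested, and 4 rose and 2 fell in vehicle against control mice (edgeR). Igf1, a growth factor that macrophages also make, rose by 2.67, Ahsg by 1.12, the transferrin receptor gene Tfrc by 0.47 and transferrin gene Trf by 0.45. Trf missed the threshold with RLE factors (adjusted p = 0.0506) and with library totals (adjusted p = 0.0813). Rbp4, a retinol carrier, fell by 0.69. Cyp2e1, an oxidase of liver and fat, fell by 4.55 and was higher under nintedanib than under vehicle by 2.598 (adjusted p = 0.00937). Among libraries lacking Adipoq these became -1.24 (adjusted p = 0.132) and 0.26 (adjusted p = 0.704), so neither call remained. With those libraries left out 2 genes of the list rose, Igf1 by 2.78 (adjusted p = 0.000905) and Tfrc by 0.58 (adjusted p = 0.0195), and 0 fell in vehicle against control mice by edgeR, with 4 of 7 at an unadjusted p under 0.05.

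Cytokines of the IL-6 family drive the acute-phase response through STAT3. Transcripts of 4 of them were higher in bleomycin vehicle than in control lungs, and receptor genes went both ways. Of 22 genes, all tested, 10 rose and 4 fell in vehicle against control mice (edgeR). Osm rose by 2.03, Il11 by 1.85, Lif by 1.70 and Il6 by 1.57, and the receptor genes Il6ra, Lifr and Il11ra1 fell by 0.72, 0.65 and 0.32, with the kinase gene Jak1 falling by 0.16. The receptor gene Osmr, named after its values were seen, rose by 0.81 (adjusted p = 1.82e-09). The cytokine genes Clcf1 and Ctf1, also named afterwards, did not pass (log2 -0.16 and 0.10, edgeR adjusted p = 0.179 and 0.403). In nintedanib against control mice Il6 did not pass either (log2 0.72, edgeR adjusted p = 0.118). Il6, named after its values were seen, was scarce, with medians of 0.382 CPM in control, 1.62 CPM in vehicle and 0.65 CPM in nintedanib libraries. Under nintedanib against vehicle, Lif fell by 0.55 (adjusted p = 0.0237) and Jak2 by 0.13 (adjusted p = 0.035), and for Il6 the log2 value was -0.84 (adjusted p = 0.0844). Neither Lif (adjusted p = 0.0671) nor Jak2 (adjusted p = 0.152) passed in libraries without Adipoq, where 6 of 22 genes rose and 2 fell in vehicle against control mice.

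In the IL-1, TNF and NF-kB list 11 of 22 genes rose and 4 fell in vehicle against control mice (edgeR). Ccl2 rose by 1.82, the TNF receptor gene Tnfrsf1b by 1.44, the NF-kB inhibitor gene Nfkbie by 0.91 and the neutrophil chemokine gene Cxcl2 by 0.77, while Nfkbia, Nfkbiz, Rela and Nfkb1 fell by 0.31, 0.24, 0.14 and 0.12. Cxcl2 was scarce, with medians of 0.504 CPM in control and 0.818 CPM in vehicle libraries. It missed the threshold with library totals (adjusted p = 0.0528). Some genes were named after their values were seen. Of these, Il1b, Tnf, Cxcl1 and Cxcl5 did not pass in vehicle against control mice (edgeR adjusted p = 0.819, 0.0763, 0.324 and 0.231). Il1a rose by 0.70 (edgeR adjusted p = 0.0104). Under nintedanib against vehicle, Relb, an NF-kB subunit, fell by 0.30 (adjusted p = 0.00811) and Nfkbie by 0.43 (adjusted p = 0.0179). In libraries without Adipoq, Relb still passed (adjusted p = 0.032) and Nfkbie did not (adjusted p = 0.0895), and 5 of 22 genes rose and 0 fell in vehicle against control mice.

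IL-17 and IL-22, which raise Lcn2 in epithelium, were hardly detected as transcripts. Il17a had 0 counts in control and in nintedanib libraries and Il22 had 0 counts in nintedanib libraries, both named after their values were seen. Of 10 genes of this list 7 were tested, and 3 rose and 2 fell in vehicle against control mice (edgeR). Il23a, a cytokine subunit that sustains IL-17-producing cells, rose by 2.12, the receptor genes Il17ra by 0.35 and Il17re by 0.24, and Il22ra2 and Traf3ip2 fell by 1.12 and 0.30. Medians in control and vehicle libraries were only 0.139 and 0.575 CPM for Il23a, and 1.15 and 0.464 CPM for Il22ra2. In libraries without Adipoq 0 of 7 passed by edgeR, with 1 at an unadjusted p under 0.05.

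Among receptors and partners of these proteins, 10 of 17 genes rose and 3 fell in vehicle against control mice (edgeR). Tlr2, a receptor that serum amyloid A can engage, rose by 1.61, Lrp2, an endocytic receptor of lipocalin-2, by 1.37, Hmox1, which breaks down haem, by 1.36, and the formyl peptide receptor gene Fpr1 by 0.94. Fpr2, of the same receptor family and named after its values were seen, did not pass (log2 0.31, edgeR adjusted p = 0.431). The endothelial genes Eng and Acvrl1, through which LRG1 is known to act, fell by 1.15 and 0.95, and the scavenger receptor gene Cd36 fell by 0.52. In libraries without Adipoq, 4 rose and 3 fell. Under nintedanib against vehicle, edgeR called 0 of 7 tested IL-17 and IL-22 genes and 0 of 17 receptor genes, with 3 and 6 at an unadjusted p under 0.05. DESeq2 called 1 lower of the first list and 1 higher and 2 lower of the second.

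**Figure D5:**
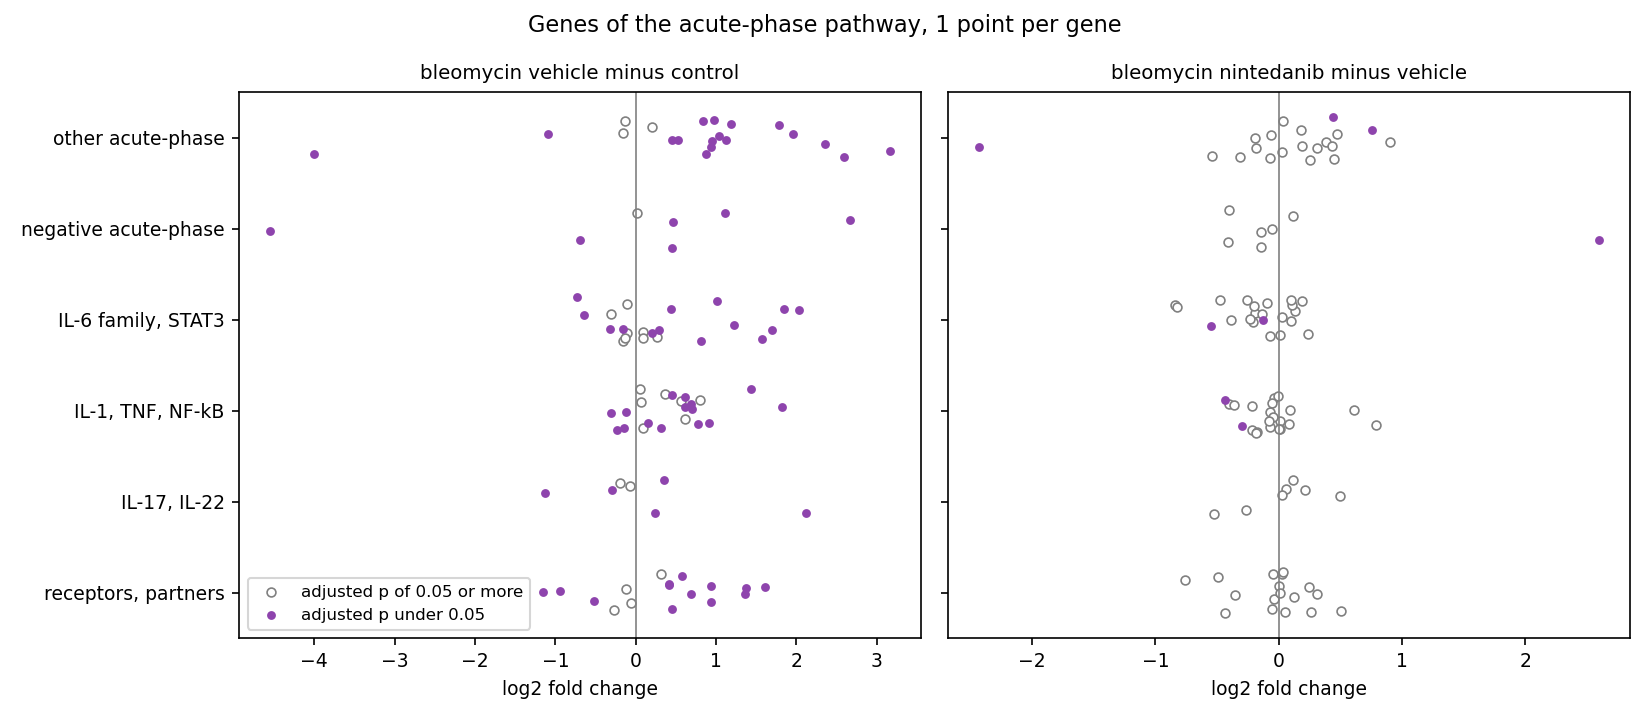
Log2 fold change of the tested genes of 6 pathway lists, with 1 point per gene, in bleomycin vehicle minus control (left) and bleomycin nintedanib minus vehicle (right). Filled points had an edgeR adjusted p under 0.05. In the left panel 15 of 20 other acute-phase genes are filled above 0, and in the right panel most points are open, with Ptx3 at -2.43 and Cyp2e1 at 2.598 farthest out.

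Markers of other cells differed between groups alongside these genes. In vehicle against control mice, 8 of 8 macrophage markers rose by edgeR, among them Spp1 by 4.50 and Chil3 by 1.94, and their sum ran from 387.5 to 630.6 CPM in control, from 1189 to 5503 CPM in vehicle and from 1168 to 6226 CPM in nintedanib libraries. All 6 tested adipocyte markers and all 6 airway secretory markers fell, 3 of 7 alveolar type 2 markers rose, and 1 of 9 neutrophil markers rose and 5 fell. Of 6 tested hepatocyte markers 1 rose and 2 fell, of 6 fibroblast markers 2 rose and 3 fell (Col3a1 rose by 1.95 and Inmt fell by 1.73), and of 6 mesothelial markers 1 rose and 1 fell (Msln rose by 1.22). Among all tested genes 29.5% rose and 28.3% fell in this comparison, so nothing particular to a list is read from its counts. In libraries without Adipoq, 7 of 8 macrophage markers rose and 1 of 6 airway secretory markers fell, and 0 of 10 neutrophil and 0 of 7 alveolar type 2 markers passed edgeR's test (1 of each at an unadjusted p under 0.05). Of all 15276 genes tested in that setting, 2050 rose and 1604 fell. Under nintedanib against vehicle 5 of 6 adipocyte, 4 of 6 airway secretory, 2 of 6 fibroblast and 2 of 6 hepatocyte markers were higher and none of these fell. Among all tested genes 3.21% were higher and 4.1% lower. By the same edgeR test 0 of 8 macrophage, 0 of 7 alveolar type 2 and 0 of 6 mesothelial markers passed (1, 1 and 3 at an unadjusted p under 0.05). In libraries without Adipoq, 0 of 2 adipocyte and 0 of 6 airway secretory markers passed edgeR's test (1 and 0 at an unadjusted p under 0.05), while 5 of 10 neutrophil markers were higher. Of all 15276 genes tested in those libraries, 248 were higher and 277 lower. There 0 of 6 fibroblast markers passed (2 at an unadjusted p under 0.05) and 1 of 6 hepatocyte markers was higher. The part of these cell types in the acute-phase values was not tested.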

How the data were processed

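The submitted data are 1 table of raw whole-number counts per Ensembl gene, deposited by the authors with a column for each library. The labels' protocols describe directional polyA libraries read as single ends of 75 bases. STAR 2.7.0f, R 3.6.0 and GRCm38 stand in the submitters' processing notes without roles. For the counter, its strand setting and the annotation release, the entry is "not given in the sources used here", so reads of overlapping or antisense genes may be mixed. GENCODE on GRCm38 gave symbols, positions and exon lengths for all 21938 genes.

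Low genes were removed by filterByExpr (minimum count 10, minimum total 15), which left 14836 genes holding 99.96% of counts. A single edgeR quasi-likelihood model with TMM factors and robust estimation covered the 3 groups, and p-values were two-sided and Benjamini-Hochberg adjusted across the tested genes (threshold 0.05). edgeR gives no SE, so each SE was the size of the log2 fold change divided by the square root of the test's F value. The 95% intervals were built on that SE with the t distribution, and both are approximate. The median biological coefficient of variation was 13.6%. Log2 CPM used a prior count of 2, and Pearson's r was taken on it with 100000 two-sided permutations. No label says that samples of a group came from separate animals, and p-values cover only the variation among these libraries, which may be partly technical. The tools were R 4.3.3 with edgeR 4.0.16, DESeq2 1.42.0 and limma 3.58.1, and Python 3.11.15 with NumPy 2.4.6, pandas 2.3.3, SciPy 1.17.1, Biopython 1.88 and Matplotlib 3.10.9.

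The members and all gene lists were chosen with earlier results of these data known. Genes named are the members, up to 4 of the largest called changes per direction of each pathway list in vehicle against control mice, each called gene of these lists under nintedanib, the 2 most abundant genes and genes at 0 of each marker list (adipocyte, neutrophil, macrophage, hepatocyte, airway secretory, alveolar type 2, fibroblast, mesothelial) and the 5 genes most like each member, of which 1 is not reported here. Alternatives were RLE factors, library totals, DESeq2, no filter on low counts, 2 groups per fit, series A alone or the series as a covariate, Saa1 and Saa2 added together, libraries without Adipoq and each library left out.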

Additional observations from a re-analysis of the deposited data

Results flagged for a closer look

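In control mice 17 values per library were checked for a single library far from the other 9, which chance flags in about 1 in 20 groups, and 4 were found. Orm1 at 5.28 CPM, the adipocyte sum at 2241 CPM and the hepatocyte sum at 112.8 CPM all stood in control replicate 1. Cyp2e1, with up to 107.8 CPM in control libraries, made up most of that hepatocyte sum, while Alb was at most 1.13 CPM. The macrophage sum at 630.6 CPM stood in control replicate 5, one of the control libraries without Adipoq.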

How the results depend on the processing

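No paired analysis was possible because the labels carry no replicate numbers. Without the libraries that hold Adipoq, which leaves 2 control, 16 vehicle and 12 nintedanib libraries, the count of called genes was 525 in place of 1084 for nintedanib against vehicle, 3654 in place of 8585 for vehicle against control and 3297 in place of 7888 for nintedanib against control, and 5 genes in place of 3 (with Orm1 and Hp added) did not overlap between nintedanib and control mice. Orm1 then had fitted log2 fold changes of 5.31 and 5.04 against control, which rest on 2 counts in the control libraries and are no bound. That setting has fewer libraries, and its share of all genes without overlap was not counted, so nothing is read from the 5 genes. The fit of the bleomycin groups alone called 640 genes for nintedanib against vehicle. Leaving out each library in turn gave 696 to 1559, 8342 to 9054 and 7627 to 8346 called genes, with 696 reached without nintedanib replicate 1, and 3 to 4 genes without overlap in either comparison with control mice, the fourth being Saa3 without vehicle replicate 12 or nintedanib replicate 16. The 0 of 8 called under nintedanib held in each alternative run. The sign of small log2 fold changes under nintedanib turned for Lcn2 (0.0768 in series A, 0.032 without Adipoq libraries), Saa3 (-0.0306 in series A) and Itih4 (-0.0183 without Adipoq libraries), and with single libraries left out Saa3 ran from -0.123 to 0.225, Itih4 from -0.119 to 0.0766 and Lcn2 from -0.127 to 0.0557. In series A, r of Saa3 with Hp under vehicle was 0.0251 and with Orm1 under nintedanib -0.132. The cause was not tested. With library totals the called genes of vehicle against control split into 3736 higher and 4882 lower, in place of 4381 and 4204, those of nintedanib against control into 3250 and 4844, in place of 4171 and 3717, and those of nintedanib against vehicle into 369 and 813, in place of 476 and 608. The lengths of single transcripts and the list counts without Adipoq libraries were chosen after seeing the data. Depth limits Saa1, Saa2 and Orm1, which had few counts.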
